A study of Homo sapiens with 12 samples.

Results

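The genes described here are ANKRD37, ZNF395, EGLN1, BNIP3, BNIP3L, NDRG1, KDM3A, P4HA1, P4HA2 and MXI1, which are 10 known transcriptional targets of the hypoxia-inducible factors (HIF) that do not encode enzymes of glycolysis. They were found by an exact match of the platform's gene symbol, which gave 17 probes among the 28098 probes with 1 symbol, and 10 genes among the 18852 genes so named. L-540, a long-established line of human Hodgkin lymphoma cells, was profiled on Illumina BeadChips, and each array reads the RNA of a whole cell population. The 12 arrays form 4 groups of 3, each with the letters A, B and C. Control cells are labelled as such with no agent named, and the other groups received 10 µM perifosine, an alkylphospholipid that interferes with AKT signalling, 5 µM sorafenib, a multikinase inhibitor, or both drugs at these doses (the combination), each for 24 h. No genotype differs between the groups. The labels name no vehicle for the control cells, no oxygen level and no separate cultures behind the letters. The p-values therefore reflect no more than array-to-array spread, part of which may be technical. In such bulk RNA, fewer cells that express a gene and less of its RNA per cell cannot be told apart.

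HIF is a pair of proteins, an oxygen-controlled alpha subunit and the constant partner ARNT. When oxygen is plentiful, prolyl hydroxylases, with EGLN1 (PHD2) as the main one, mark the alpha subunit for ubiquitination by VHL. When oxygen falls, or when growth factor signalling raises its synthesis, the alpha subunit persists and the pair binds a short core sequence in its target genes. The products of the genes described here serve feedback on the pathway (EGLN1), mitochondrial clearance (BNIP3 and BNIP3L), collagen maturation in the endoplasmic reticulum (P4HA1 and P4HA2, catalytic subunits of collagen prolyl 4-hydroxylase), removal of histone H3 lysine methylation (KDM3A), antagonism of MYC (MXI1), stress-linked differentiation (NDRG1), DNA binding (ZNF395) and a small ankyrin-repeat protein (ANKRD37).

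The HIF core sequence was searched in the 250 bases before each annotated start site, as ACGTG or GCGTG on either strand (a match on the opposite strand is printed as its reverse complement). Windows from the RefSeq promoter table of build GRCh38.p14 were searched for 7 of the 10 genes. Those of ZNF395, BNIP3L and NDRG1 were not searched, so nothing is said here about matches in these genes. At least 1 match occurred in 43.2% of all 35116 windows of this length in the table, and in 59.4% of the windows with a GC content of at least 60%, so a match by itself is common. The windows of ANKRD37, EGLN1 and BNIP3 are printed because they stand for 3 readouts on these arrays. ANKRD37 passed the test with the combination only, EGLN1 was measured but passed in no comparison, and BNIP3 had no signal above background. With sorafenib, ANKRD37 and EGLN1 had the same adjusted p in limma (0.0908). Capitals mark the core and, where both strands match in overlap, the 6 bases of CACGTG. The ANKRD37 window lies at chr4:185396591-185396840 on the plus strand, that of EGLN1 at chr1:231422288-231422537 on the minus strand and that of BNIP3 at chr10:131981924-131982173 on the minus strand, each written 5′ to 3′ on the gene's strand and ending at the base before the start site.
ANKRD37: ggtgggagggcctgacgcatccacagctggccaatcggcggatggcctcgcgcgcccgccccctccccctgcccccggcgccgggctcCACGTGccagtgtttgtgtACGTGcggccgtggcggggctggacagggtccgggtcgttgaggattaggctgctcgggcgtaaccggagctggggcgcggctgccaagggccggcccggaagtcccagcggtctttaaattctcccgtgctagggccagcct
EGLN1: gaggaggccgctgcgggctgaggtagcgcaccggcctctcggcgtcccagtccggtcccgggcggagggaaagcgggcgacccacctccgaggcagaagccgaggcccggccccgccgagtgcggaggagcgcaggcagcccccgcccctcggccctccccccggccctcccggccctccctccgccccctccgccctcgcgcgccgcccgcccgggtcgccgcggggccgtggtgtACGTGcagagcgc
BNIP3: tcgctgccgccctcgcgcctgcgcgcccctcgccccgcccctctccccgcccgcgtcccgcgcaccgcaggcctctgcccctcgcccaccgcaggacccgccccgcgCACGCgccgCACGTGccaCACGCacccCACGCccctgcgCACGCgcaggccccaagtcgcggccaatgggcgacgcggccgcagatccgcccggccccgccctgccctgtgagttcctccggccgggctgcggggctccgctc
The ANKRD37 window holds 3 matches, of which the ACGTG at -161 to -157 and its reverse match at -162 to -158 overlap in CACGTG, and a further ACGTG stands at -143. The EGLN1 window holds 1 match, an ACGTG at -13 to -9. The BNIP3 window, with a GC content of 81.6%, holds 6 matches between -143 and -100, 2 of which overlap in CACGTG. Of all windows 7.76% hold at least 3 matches and 3.22% at least 4, and these shares are not matched for GC content. KDM3A has 1 match, the same site seen in both of its 2 overlapping windows, and P4HA1 has 1 at -86 to -82. The P4HA2 window has none, and the 3 windows of MXI1 have 0, 2 and 1. These matches are descriptions of letters, and binding of HIF was not measured.

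**Figure D1:**
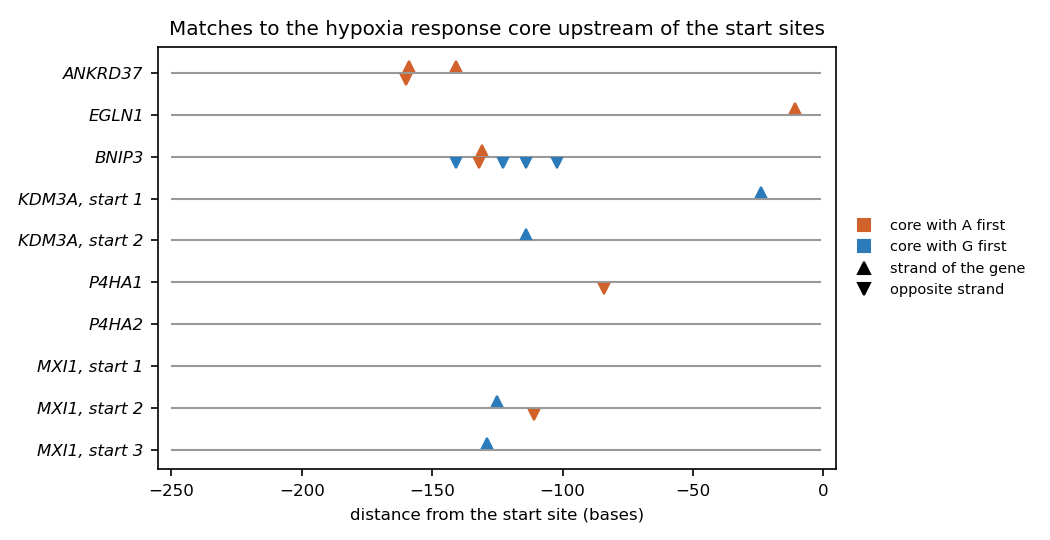
Matches to the HIF core in the 250 bases before the start sites of 7 genes (10 windows), by distance from the start in bases. Upward triangles are matches on the gene's strand and downward triangles matches on the other strand, orange for ACGTG and blue for GCGTG. BNIP3 carries 6 matches, ANKRD37 3, and P4HA2 and the first MXI1 window carry none. The marks in the overlapping KDM3A windows are the same site.

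Of the 17 probes, 9 were detected (detection p under 0.01 against the negative-control beads) on at least 3 of the 12 arrays and were kept, and they left 7 genes in the tests. A gene with several kept probes was read from the brightest. BNIP3, which promotes mitophagy, had 1 probe that was detected on 0 arrays, with bead intensities between 387 and 595 and detection p-values between 0.229 and 0.825. KDM3A, a histone demethylase, was detected only on sorafenib array C (detection p 0.00264). P4HA1 was detected on combination array A with 1 of its probes and on no array with the other. These 3 genes therefore have no measured level in most arrays, and no change is given for them. The second BNIP3L probe and 2 of the 4 MXI1 probes were detected on no array, and another MXI1 probe on 2 control arrays only. The results below therefore cover 7 genes, 4 of which have a single probe on the array.

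The arrays detected 9291 to 11657 probes each, and correlations within a group ran from 0.956 to 0.984 over genes. Array B of the combination stood apart, with a median intensity of 648.7 at the top of the range, the lowest number of detected probes and an array weight of 0.291 in limma, the smallest of the 12. Markers of Hodgkin and Reed-Sternberg cells were present for 7 of 10 genes, with TNFRSF8 (CD30), TRAF1, JUNB, BATF3, GATA3, ID2 and FSCN1 detected on all 12 arrays, whereas the chemokines CCL17 and CCL22 were detected on none. The B cell markers CD79A, CD79B, MS4A1, PAX5 and POU2AF1 were detected on 0 arrays, while BLK was detected on 12, with a linear level of 886 to 1108 in controls and 1062 to 1635 in the combination group. Detected on 0 arrays were also CD3D, CD3E, CD3G and CD8A, whereas CD2, CD247, CD4 and NKG7 were detected on 12. Of the monocyte markers, CD14, CD163 and LYZ were at 0 detected arrays. The summed linear level of the other 2, CD68 and CSF1R, ran from 1949 to 3089 in controls, from 2074 to 2392 in the perifosine group, from 2875 to 3427 in the sorafenib group and from 3172 to 3941 in the combination group, and the part of BLK and of these markers in the results was not tested.

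The levels are log2 intensities after background correction and quantile normalization, and values of different probes are not comparable with each other. Sorafenib against control asks what the kinase inhibitor alone does to these genes. ZNF395, a DNA-binding protein, fell 2.61-fold, and ANKRD37, BNIP3L and EGLN1 had arrays below every control array without passing the test. NDRG1 and P4HA2 showed no such separation. Across all tested genes, 119 of 8092 (1.47%) passed the adjusted p of 0.05 in this comparison, 42 of them (0.519%) as lower, and 1 of the 7 hypoxia-inducible genes did. All 7 tested genes had a log2 change below 0, as had 49.7% of all 8092 genes. Their median was -1.11, against a median of 0.00 over all genes. The changes of NDRG1 (-0.18) and P4HA2 (-0.12) were small, and each turned sign in 1 of 21 alternatives.

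ZNF395 stood at 10.52, 10.34 and 10.43 on control arrays A, B and C, and at 9.38, 8.71 and 9.05 on the sorafenib arrays. All 3 sorafenib arrays lay below all 3 control arrays, with 0.96 log2 units between the closest. The log2 change was -1.39 ± 0.228 (SE, n = 3 arrays against 3) with an adjusted p of 0.0161. That call did not survive every choice of arrays: without control B the adjusted p was 0.0529, without control C 0.0673, without sorafenib B 0.0647 and without sorafenib C 0.0731, with log2 changes from -1.22 to -1.43. It was 0.154 with median scaling in place of quantile normalization and 0.0512 with only these 6 arrays in the fit.

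ANKRD37, the ankyrin-repeat gene, read 13.001, 12.90 and 13.07 in controls and 12.31, 11.21 and 11.29 with sorafenib. The groups did not overlap, and sorafenib array A stood about 1 log2 unit above the other two. Its log2 change was -1.38 ± 0.378 (SE, n = 3), as large as that of ZNF395, with an adjusted p of 0.0908. BNIP3L, a mitophagy receptor of the outer mitochondrial membrane, read 10.65, 10.78 and 10.45 in controls and 10.24, 8.94 and 8.76 with sorafenib. Again array A was the highest of the treated arrays and none overlapped with the controls. Its log2 change was -1.32 ± 0.400 (SE, n = 3) with an adjusted p of 0.119.

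EGLN1, the oxygen-sensing hydroxylase, read 8.72, 8.12 and 8.35 in controls and 6.92, 7.27 and 7.67 with sorafenib, where array A was not detected above background. Here array A was the lowest of the treated arrays, the reverse of the order seen for ANKRD37 and BNIP3L. Its log2 change was -1.11 ± 0.302 (SE, n = 3) with an adjusted p of 0.0908. Non-overlap below control, shown by these 4 of 7 genes, was found for 11.8% of all tested genes in this comparison. In the authors' deposited normalized table the same arrays gave smaller differences for ZNF395 (-0.89), BNIP3L (-0.86), EGLN1 (-0.38) and MXI1 (-0.19). ANKRD37 (-1.26, adjusted p 0.0301) and ZNF395 passed there, in a fit that called 292 of 8092 genes. The method of that table is not stated. Its sorted values differed between arrays by at most 0.00827 in relative terms, as after quantile normalization. Its lowest value was 270 on every array. The part of this in the smaller differences was not tested. Without combination array B in the fit, which then called 260 of 8092 genes, ANKRD37 (adjusted p 0.0415) and EGLN1 (0.0387) passed besides ZNF395. Without combination array A, with 125 genes called, ANKRD37 passed besides ZNF395 (0.0456).

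**Figure D2:**
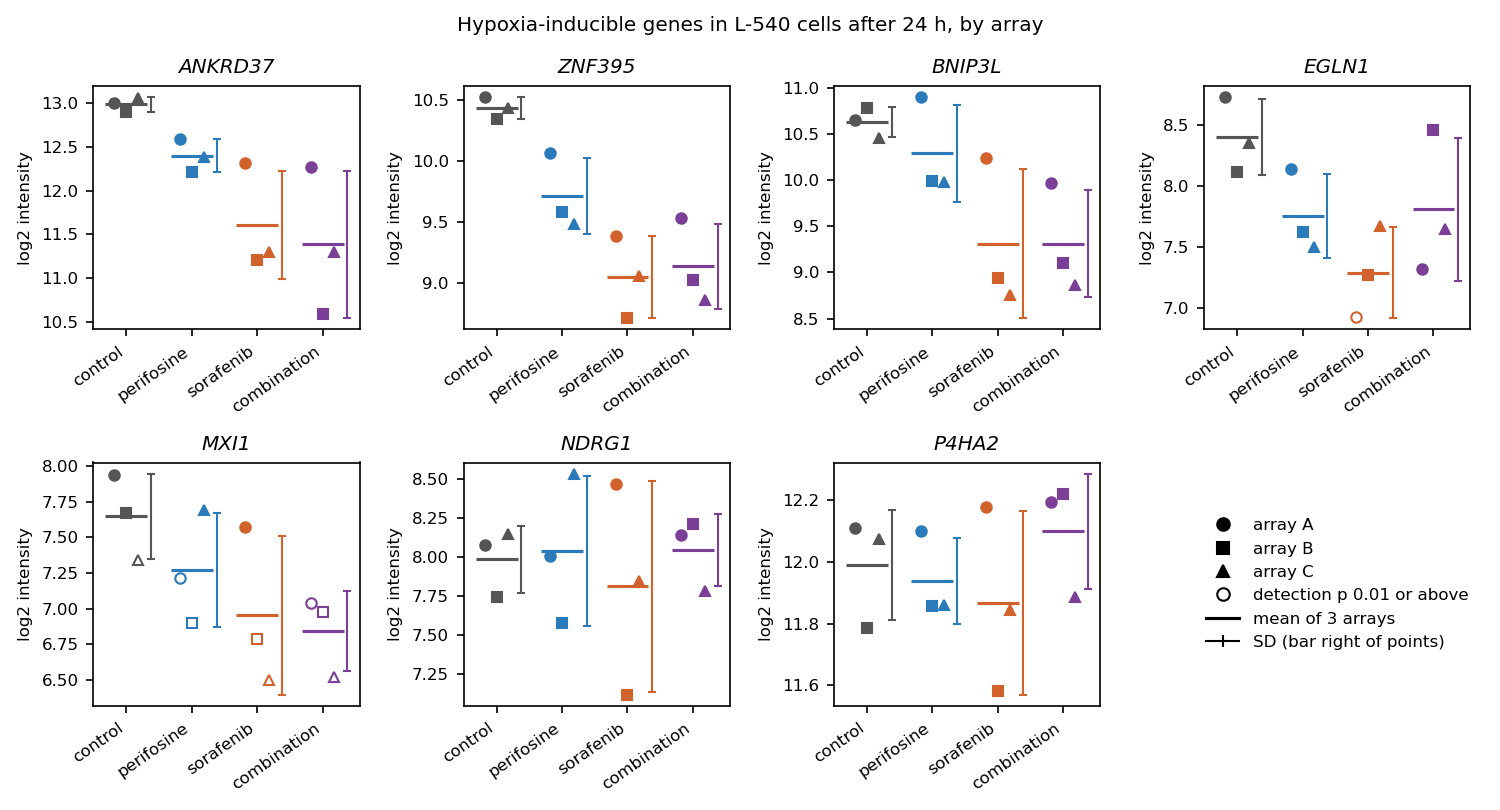
Log2 intensity of the 7 tested genes on each array by group. Circles, squares and triangles are arrays A, B and C, open symbols have a detection p of 0.01 or above, lines are means of 3 arrays and bars are SD. ANKRD37, ZNF395 and BNIP3L step down from control to sorafenib, while NDRG1 and P4HA2 overlap in all groups.

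Arrays with the same letter deviated together in the control, perifosine and sorafenib groups, so the fit with the letter as a replicate block is given beside this comparison. Within letters, ANKRD37 differed from its control by -0.69 on A, -1.69 on B and -1.77 on C, and BNIP3L by -0.41, -1.84 and -1.70. ZNF395 differed by -1.15, -1.64 and -1.38. With the block, 3 of 7 genes passed, ZNF395 (adjusted p 0.0057), BNIP3L (0.0235) and ANKRD37 (0.0291), while EGLN1 did not (0.0903). The block also raised the calls over all genes to 404 of 8092 (4.99%). This fit holds all 12 arrays, so its letter effects and spread also rest on the combination arrays, which the letters did not pair.

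**Figure D3:**
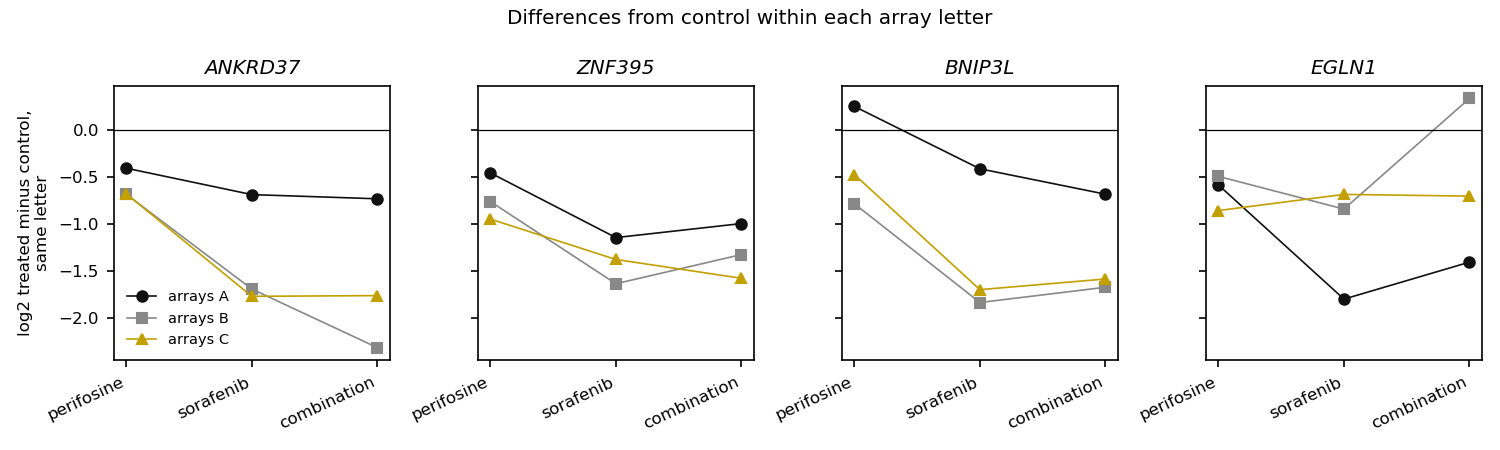
Log2 difference between each treated array and the control array of the same letter for ANKRD37, ZNF395, BNIP3L and EGLN1. The A arrays (black) lie closest to 0 for ANKRD37 and BNIP3L and furthest from 0 for EGLN1 with sorafenib. The letters did not pair the combination arrays.

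MXI1, a MAX-binding repressor that opposes MYC, was near the limit of detection and was kept for 4 detected arrays, 2 of them controls. It read 7.93, 7.67 and 7.34 in controls, with 2 of 3 arrays detected, and 7.57, 6.79 and 6.50 with sorafenib, with 1 of 3 detected. The groups overlapped, and the log2 difference of -0.70 ± 0.292 (SE, n = 3) had an adjusted p of 0.254. With the combination no array was detected, at 7.04, 6.97 and 6.52 (measured mean 6.85). The control mean of 7.65 lay 1.25-fold (0.32 log2 units) above the detection floor of the combination arrays (7.32). That distance leaves out the spread between arrays, so it is no lower limit for the change. The limma log2 difference was -0.80, with a confidence interval from -1.44 to -0.16, which holds smaller changes (adjusted p 0.147).

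NDRG1, a stress-responsive gene named for its regulation by MYC family proteins, read 8.08, 7.74 and 8.15 in controls and 8.47, 7.12 and 7.85 with sorafenib. The treated arrays lay on both sides of the controls. The log2 difference was -0.18, with a 95% interval from -0.88 to 0.53, which still holds a change of the size seen for MXI1. P4HA2 was detected on all 12 arrays and read 12.11, 11.79 and 12.08 in controls and 12.18, 11.58 and 11.84 with sorafenib. Its log2 difference was -0.12 with an interval from -0.52 to 0.27, which does not reach the changes of ANKRD37, ZNF395, BNIP3L or EGLN1. The other P4HA2 probes gave 0.05 and 0.07, so all 3 kept probes of this gene lay within 0.13 log2 units of 0 with sorafenib.

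The combination answers what both drugs do together against the same control arrays, so its values are not independent of those above. ANKRD37 and ZNF395 fell, BNIP3L lay below the controls on all 3 arrays without passing the test, and EGLN1 did not separate. In this comparison 276 of 8092 genes (3.41%) passed, 89 (1.1%) as lower, and 2 of the 7 genes did. The median was -0.95 over the 6 genes other than MXI1, which was not detected on any combination array, against 0.01 over all genes. Over the same 6 genes the median with sorafenib was -1.21, and over all 7 the combination median was -0.80.

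ANKRD37 read 12.27, 10.58 and 11.30 on combination arrays A, B and C, all below the lowest control value of 12.90. It fell 3.04-fold, a log2 change of -1.60 ± 0.378 (SE, n = 3), with an adjusted p of 0.0428. The call is narrow: leaving out any 1 of 10 of the 12 arrays (all but sorafenib A and combination A) brought the adjusted p to between 0.0542 and 0.127, with log2 changes of -1.20 to -1.65. It was 0.127 with median scaling, 0.0944 with no filter on dim probes, 0.0534 with each probe tested on its own and 0.127 with only the 6 arrays in the fit.

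ZNF395 read 9.53, 9.02 and 8.85 with the combination, again with no overlap with the controls. It fell 2.46-fold, a log2 change of -1.30 ± 0.228 (SE, n = 3), with an adjusted p of 0.0155. The adjusted p was 0.0568 without control C, 0.0523 without combination C, 0.125 with median scaling and 0.0625 with only these 6 arrays. BNIP3L read 9.97, 9.10 and 8.87, a log2 difference of -1.31 ± 0.400 (SE, n = 3) with an adjusted p of 0.0935. Without sorafenib A the adjusted p of BNIP3L was 0.0495. The ANKRD37, ZNF395 and BNIP3L arrays lay below all controls, 3 of the 6 genes other than MXI1, against 10.5% of all genes tested. In the authors' deposited normalized table the log2 change of ZNF395 was -0.84. ZNF395, ANKRD37 and BNIP3L passed there, in a fit that called 544 of 8092 genes.

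EGLN1 read 7.32, 8.45 and 7.65 with the combination. Array B, the array of lowest weight, lay within the control range of 8.12 to 8.72 and the other two below it. The log2 difference was -0.59, with an interval from -1.25 to 0.07 and an adjusted p of 0.295. It was -0.91 without combination array B and -0.35 without combination array A. NDRG1 (8.14, 8.22 and 7.79) and P4HA2 (12.19, 12.22 and 11.89) overlapped with their controls, with log2 differences of 0.06 and 0.11. The dimmest P4HA2 probe differed from the other probes of the gene here: it read 8.60, 9.06 and 8.31 against 8.11, 8.14 and 8.09 in controls, a log2 difference of 0.55 ± 0.208 (SE, n = 3) with an adjusted p of 0.183 over all kept probes.

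**Figure D4:**
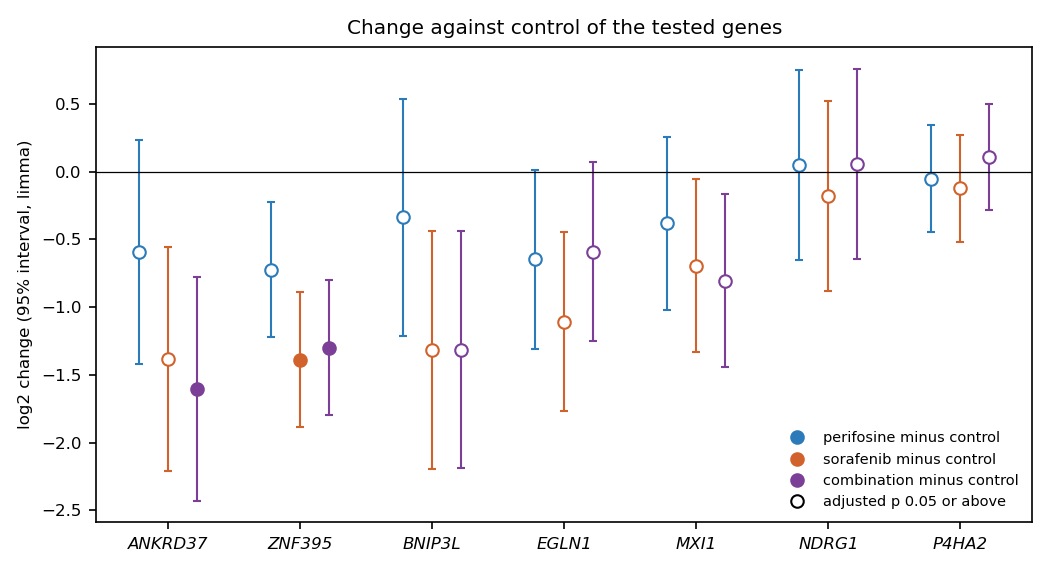
Log2 change against control of the 7 tested genes with perifosine, sorafenib and the combination, as limma estimates with 95% intervals (n = 3 arrays per group). Filled points have an adjusted p under 0.05. ZNF395 passed with sorafenib and with the combination and ANKRD37 with the combination, while no gene passed with perifosine.

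With perifosine alone the log2 differences of ANKRD37, ZNF395 and BNIP3L lay between -0.34 and -0.72, and none passed. In limma's test 0 of 7 genes passed, as did 0 of all 8092 (0%), and 1 of the 7 had an unadjusted p under 0.05 (198 of all genes did). That gene was ZNF395, which read 10.07, 9.58 and 9.48, all below the controls, a log2 difference of -0.72 with an interval from -1.22 to -0.22. ANKRD37 read 12.59, 12.22 and 12.39, also below every control array, with a log2 difference of -0.59 and an interval from -1.42 to 0.24. Such non-overlap was shown by these 2 of 7 genes and by 3.29% of all genes. EGLN1 read 8.14, 7.62 and 7.50, and its array A lay 0.02 above the lowest control, with a difference of -0.65. BNIP3L read 10.90, 9.99 and 9.98, so that array A was the highest of all BNIP3L values, with a difference of -0.34 that was -0.64 without perifosine A, -0.19 without perifosine B and -0.18 without perifosine C. MXI1 (-0.38), NDRG1 (0.05) and P4HA2 (-0.05) overlapped with the controls.

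The drugs were then set against each other. In sorafenib against perifosine, 79 of 8092 genes (0.976%) passed and 0 of the 7 did, with 2 at an unadjusted p under 0.05, as were 1310 of all genes (16.2%). BNIP3L had the lowest value of the 7, -0.98 ± 0.400 (SE, n = 3; adjusted p 0.248), followed by ANKRD37 at -0.79 ± 0.378 (0.334) and ZNF395 at -0.66 ± 0.228 (0.174). With the replicate block ZNF395 passed (adjusted p 0.0418), in a fit that called 4.55% of all genes.

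Adding sorafenib to perifosine, read as the combination against perifosine, called 193 genes (2.39%) and 0 of the 7, with 3 at an unadjusted p under 0.05, as were 1509 of all genes (18.6%). ANKRD37 differed by -1.01, BNIP3L by -0.98 and ZNF395 by -0.58, with adjusted p-values of 0.174, 0.215 and 0.199. Without combination array B the difference of ANKRD37 was -0.61, and leaving out 1 array in turn gave -0.61 to -1.46 for it. In the authors' deposited normalized table BNIP3L differed by -0.64 and ZNF395 by -0.34.

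Adding perifosine to sorafenib, read as the combination against sorafenib, called 0 genes (0%) and 0 of the 7, none of which had an unadjusted p under 0.05, against 164 of all genes. ANKRD37 differed by -0.22 (95% interval -1.05 to 0.61), BNIP3L by 0.00 (-0.87 to 0.88) and ZNF395 by 0.09 (-0.41 to 0.58). The widest difference was that of EGLN1, 0.52 higher in the combination with an interval from -0.14 to 1.18. It was 0.19 without combination array B and 0.34 without sorafenib array A. The intervals of ANKRD37 and BNIP3L hold the values that these genes had with perifosine alone (-0.59 and -0.34). Those of ZNF395 and EGLN1 do not hold their values there (-0.72 and -0.65). These 2 values have wide intervals of their own (-1.22 to -0.22 and -1.31 to 0.02), which overlap the intervals here. The difference between the 2 effects of perifosine is the interaction, given next.

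The interaction is the change with both drugs minus the sum of the changes with each. It was above 0 for all 7 genes, while 49.9% of all genes lay below 0. It passed for 0 of the 7 and for 0 of 8092 genes (0%). It was 1.16 ± 0.428 (SE) for EGLN1 and 0.81 ± 0.322 for ZNF395, the 2 genes with an unadjusted p under 0.05, a level that 163 of all genes reached. Without combination array B the interaction of EGLN1 was 0.84, and in the authors' deposited normalized table it was 0.41. For both genes the combination was less low than the sum of the single-drug differences.

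The regulators of HIF itself were measured for 14 of 19 genes, and by limma 0 passed against control with any treatment. With sorafenib 2 of the 14 had an unadjusted p under 0.05 and with the combination 5, a level reached by 16.9% and 20.9% of all 8092 genes. HIF1A, the alpha subunit, was detected on 8 arrays and differed by 0.22 with sorafenib and -0.17 with the combination. VHL, its ubiquitin ligase, differed by 0.27 and 0.21, and EGLN2, a paralog of EGLN1, by 0.03 and 0.28. The largest differences in this list with sorafenib were those of RBX1 (-0.68) and SIAH2 (-0.64), proteins of ubiquitin ligases, with adjusted p-values of 0.258 and 0.0755. The list median was 0.00 with sorafenib and -0.18 with the combination. HIF protein was not measured.

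Another 49 hypoxia-inducible genes outside glycolysis were counted as a wider list, and 23 of them were measured. With sorafenib 19 of 23 were below control, against 49.7% of all genes, with a median log2 change of -0.43, and 0 passed in limma. An unadjusted p under 0.05 was found for 10 of the 23 and for 16.9% of all genes. With the replicate block, which called 4.99% of all genes, 6 of the 23 passed as lower: HILPDA, a lipid droplet protein detected on 5 arrays (-2.12, block adjusted p 0.0295), IER3 (-1.41, 0.0185), DDIT4, an inhibitor of mTORC1 (-1.21, 0.00571), INSIG2, a regulator of sterol synthesis (-1.01, 0.0174), ERO1A, an oxidase of the endoplasmic reticulum (-0.69, 0.0435), and PLOD2, a collagen lysyl hydroxylase (-0.63, 0.0457). HILPDA had a control mean of 8.07 and was not detected on most arrays, so its change is partly against background and its size is uncertain. With the combination PLOD2 fell, by 0.79 on the log2 scale (adjusted p 0.0459), as 1 of 23. VEGFA, the angiogenic growth factor, differed by 0.04 and 0.18, and CXCR4, a chemokine receptor, by 0.40 and 0.65 upward with adjusted p-values of 0.320 and 0.0844.

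The glycolytic branch of the same response was measured for 21 of 25 genes. All 21 were below control with sorafenib and with the combination, against 49.7% and 48.8% of all 8092 genes. The list medians were -0.60 and -0.59. As lower, 6 and 9 passed, against 0.519% and 1.1% of all genes. With sorafenib the 6 included HK2, a hexokinase (-1.67), PGK1, phosphoglycerate kinase (-1.05), PFKFB3 (-0.83), PGAM1 (-0.82) and GPI (-0.81). Under the replicate block 12 passed as lower with sorafenib, in a fit that called 4.99% of all genes in either direction. The 21 genes and the 7 share arrays and controls, and the difference between the lists was not tested. Per gene, 4 of the 7 hypoxia-inducible genes had a log2 change below -1 with sorafenib, as did 4 of the 21. Of all 8092 genes 0.457% lay below the EGLN1 value of -1.11, and the share below -1 was not counted.

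Close relatives and partners of the proteins were measured for 16 of 23 genes and 0 passed against control by limma, with 2 at an unadjusted p under 0.05 with sorafenib and 3 with the combination, against 16.9% and 20.9% of all genes. P4HB, the beta subunit that completes the collagen prolyl 4-hydroxylase with P4HA1 or P4HA2, differed by -0.53 with sorafenib (adjusted p 0.0552, and 0.0404 with the replicate block), whereas P4HA2 itself differed by -0.12. MAX, the partner of MXI1, and MYC differed by -0.20 and -0.07. The BNIP3-related genes BNIP1 and BNIP2 differed by 0.24 and 0.03. The median of this list was 0.00 with sorafenib and 0.12 with the combination.

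**Figure D5:**
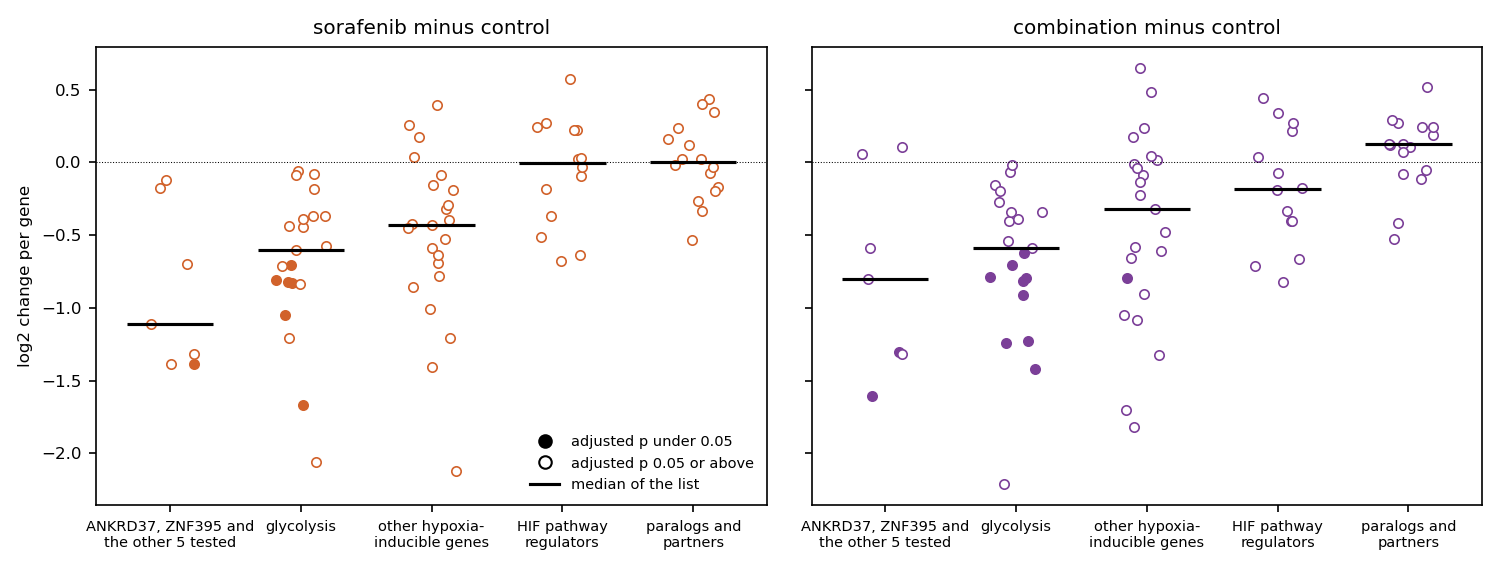
Log2 change against control per gene with sorafenib (left) and the combination (right), for the 7 tested genes and the lists of glycolysis genes (21), other hypoxia-inducible genes (23), HIF pathway regulators (14) and paralogs and partners (16). Filled points have an adjusted p under 0.05 and lines are list medians, which run from -1.11 to 0.00 with sorafenib. The median of the 7 genes with the combination is the value of MXI1, which was not detected there.

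The 7 genes varied among themselves as well as between groups. Averaged over the 7 and set to 0 in the controls, the level was -0.38 in the perifosine group, -0.88 in the sorafenib group and -0.78 in the combination group. Array A was the least lowered in each treated group, at -0.15, -0.43 and -0.52. This mean includes MXI1, which was detected on 4 of the 12 arrays. NDRG1 and P4HA2 lay furthest from the mean profile, with root mean square differences of 0.64 and 0.62 log2 units over the 12 arrays. Among all other genes the nearest to the mean profile were SEMA6A (0.155), RIMKLA (0.182), TNFRSF8 (0.187), WDR54 (0.189) and DHRS2 (0.191). They were picked for this profile on the same arrays, so lower values with sorafenib and the combination follow from the choice. Their p-values below are descriptions and no separate evidence. TNFRSF8, which encodes the Hodgkin marker CD30, fell with sorafenib by 0.98 (adjusted p 0.0295) and with the combination by 0.81 (0.0408) on the log2 scale. The other 4 were lower by 0.69 to 0.77 with sorafenib, and none of these 4 passed there, while WDR54 fell with the combination by 0.71 (adjusted p 0.0418).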

How the data were processed

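Total RNA of 12 L-540 samples was amplified to biotin-labelled cRNA and hybridised to Illumina BeadChips, per the labels' protocols, and the submitters' processing notes name BeadStudio without a version. The deposited unnormalized table holds 1 linear bead intensity and 1 detection p-value per probe and array, per the file headers. A second deposited table holds the authors' normalized intensity values, with the method not given in the sources used here. From the unnormalized intensities, background was corrected and values were quantile-normalized and taken to log2 with neqc (limma 3.58.1, R 4.3.3, offset 16). Kept were the 11904 probes detected (p under 0.01) on 3 or more of the 12 arrays, and the brightest probe per gene gave 8092 genes. All arrays entered 1 limma model with a mean per group, tested with eBayes in 7 comparisons, each adjusted by Benjamini-Hochberg over all 8092 genes at 0.05. The detection floor given for MXI1 uses the lowest signal among detected probes of each array.

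The letters A, B and C paired the arrays of control, perifosine and sorafenib, where residuals of the same letter correlated in every pair (0.19 to 0.39), but not those of the combination (-0.16 to 0.32), so fits with the letter as a replicate block are given beside sorafenib against control and against perifosine. The genes and lists were chosen with earlier results of these data known, and the gene-level script was tested on simulated data. The genes named are the 10 genes with every probe, up to 5 of each list with those past the threshold first, and the 5 nearest in pattern. Genes named outside this (HIF1A, VHL, EGLN2, VEGFA, CXCR4, MAX, MYC, BNIP1, BNIP2, and the sixth gene of the wider list) were chosen after their values were seen. Alternatives were the authors' normalized table, median scaling, array weights, 2 other filters, the mean of probes, single probes, the groups compared alone, the replicate block and leaving out each array. The arrays' number limits the precision.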

Additional observations from a re-analysis of the deposited data

How the results depend on the processing

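The slide as a block was not run because the file headers give no slide. Under the 20 or 21 alternatives of each comparison, the count of the 7 genes past the threshold was 0 in every one for perifosine against control, combination against sorafenib and the interaction. For sorafenib against control, 1 gene passed, against 2 in the authors' normalized table, 0 with median scaling, 4 with array weights, 2 with probes detected on all 12 arrays, 0 with only the groups compared, 3 with the replicate block, and 0 to 3 on leaving out 1 array. For the combination against control, 2 passed, against 3 in the authors' table, 0 with median scaling, 1 with no filter on dim probes, 1 with each kept probe on its own, 0 with only the groups compared, 3 with the replicate block, and 0 to 3 on leaving out 1 array. With the replicate block 1 gene passed in the combination against perifosine (BNIP3L) and 1 in sorafenib against perifosine (ZNF395), against 0 otherwise, and it ended no call of these genes made without it. Over all genes, the calls moved widely with these settings, from 119 to between 8 (median scaling) and 404 (replicate block) for sorafenib against control, from 276 to between 4 (median scaling) and 650 (block) for the combination against control, from 193 to between 0 (only the groups compared) and 501 (block) for the combination against perifosine, and from 79 to between 1 (only the groups compared) and 413 (array weights) for sorafenib against perifosine. On leaving out 1 array these counts were 19 to 260, 40 to 260, 28 to 186 and 19 to 214 in the same order. The causes were not tested.

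Of 704 recomputed log2 changes, 645 kept their sign and side of the threshold and 20 turned sign, none of them past the threshold on either side. Those outside the leave-one-out fits were P4HA2 in the combination against control (-0.022 with median scaling), NDRG1 there (-0.0016 with array weights), and in the combination against sorafenib BNIP3L (-0.016 in the authors' table, -0.0995 with median scaling), ZNF395 (-0.021 with median scaling) and ANKRD37 (0.054 with array weights). When 1 array was left out, the ranges were -0.66 to 0.18 for ANKRD37, -0.11 to 0.25 for ZNF395 and -0.32 to 0.46 for BNIP3L in that comparison. For NDRG1 they were -0.20 to 0.28, -0.51 to 0.17 and -0.063 to 0.19 against control with perifosine, sorafenib and the combination. For P4HA2 they were -0.15 to 0.0081 with perifosine and -0.28 to 0.019 with sorafenib. Signal over background limits EGLN1, not detected on 1 array, and MXI1, not detected on 8.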
